A study of Mus musculus with 120 samples.

Results

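The insulin-like growth factor system was described in single cells of the mouse endolymphatic sac through 10 genes: the ligands Igf1 and Igf2, the imprinted non-coding RNA H19 beside Igf2, the receptors Igf1r and Igf2r, and the binding proteins Igfbp2, Igfbp3, Igfbp4, Igfbp5 and Igfbp7. They were taken by symbol from a table of 48371 gene symbols in 48555 entries, and all 10 were found. The genes were chosen by their family, with the FPKM differences of some of them between cell classes and genotypes in this same table already known, so the differences below describe the choice and carry no test. The endolymphatic sac is the blind end of the inner ear's endolymph duct, an epithelium that moves ions and fluid, set in connective tissue. Cells were taken at E14.5 and sequenced one by one with Smart-seq2, a full-length protocol that keeps no strand. The first group carried 1 copy of the Sox9Y440X allele, named for a stop codon in the transcription factor SOX9, over a wild-type copy (Sox9Y440X/+, 62 cells), and the second was wild type (58 cells). The labels name no embryo, strain, sex or cell sort, so each genotype counts as 1 sample and cells are not replicates of it.

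Insulin-like growth factors are secreted peptides that drive growth and survival of embryonic tissue. They signal through Igf1r, a receptor tyrosine kinase that passes the signal to IRS adaptors, PI3-kinase and AKT, while Igf2r takes up Igf2 for breakdown in lysosomes without a kinase of its own. Binding proteins hold the ligands outside the cell and are cut by secreted proteases, and Igf2 and H19 are oppositely imprinted neighbours, Igf2 read from the paternal chromosome and H19 from the maternal one. In embryos the ligands are known mostly from mesenchyme.

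After 4 Sox9Y440X/+ cells and 1 wild-type cell with fewer than 1000 genes were left out, 115 cells fell into 8 clusters, made without the 10 genes. Clusters 4 and 5 carried mesenchyme markers and are called connective, and the other 6 carried epithelium markers and are called epithelial. This gave 21 connective cells of Sox9Y440X/+ and 1 of wild type, and 37 epithelial cells of Sox9Y440X/+ and 56 of wild type. Connective cells expressed 0 to 2 of 14 epithelium markers in Sox9Y440X/+ and 0 in wild type, against 6 to 14 in Sox9Y440X/+ and 5 to 14 in wild-type epithelial cells. Of 15 mesenchyme markers, 0 to 13 were found in Sox9Y440X/+ connective cells and 9 in the wild-type one, against 0 to 3 in Sox9Y440X/+ and 0 to 4 in wild-type epithelial cells. Of 12 chondrocyte markers, 0 to 6 were found in Sox9Y440X/+ connective cells (median summed level 544 FPKM, highest 2346) and 8 in the wild-type one (4257 FPKM), against 0 to 6 in epithelial cells of either genotype. The wild-type connective cell, with mesenchyme markers summing to 981 FPKM, thus stood above all Sox9Y440X/+ connective cells in chondrocyte markers. The Sox9Y440X/+ connective cell numbered 10 went against its class, with no mesenchyme marker and 10 of 11 endothelium markers, and cell 20 had 3 of 7 pericyte markers beside 3 mesenchyme markers. Epithelial cells had a median of 4506 genes in Sox9Y440X/+ and 3241.5 in wild type, and Sox9Y440X/+ connective cells a median of 3593. Values are FPKM, which adjusts fragments for the length of the transcript and the total of the cell. Since read counts are not kept in FPKM, depth is unknown, and an exact 0 can be a failed estimate: 2 of the 115 cells lacked Gapdh and 5 lacked Eef2. Detected means 1 FPKM or more, and each share of cells has an exact 95% interval (Clopper-Pearson) for counting error only.

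The ligands and H19 were genes of the connective cells. Both ligands were present in most Sox9Y440X/+ connective cells, and the single wild-type connective cell had both. Few epithelial cells of either genotype had any of the 3 transcripts. The 10 genes together showed the same split: a Sox9Y440X/+ connective cell had 2 to 9 of them (median 5) and 20 of 21 such cells had at least 4, against 3 of 37 Sox9Y440X/+ epithelial cells. Of the wild-type cells, the connective one had 4, and 1 of 56 epithelial cells had at least 4.

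Igf2, the ligand of fetal growth, had a lowest value of 0, a median of 73.0 and a highest value of 364 FPKM in the 21 Sox9Y440X/+ connective cells, and 59.6 FPKM in the wild-type connective cell. In epithelial cells the lowest and the median were 0 in both genotypes, with highest values of 51.6 FPKM in Sox9Y440X/+ and 8.37 FPKM in wild type. The connective cells were high and the epithelial cells at or near 0, with an overlap that came from Sox9Y440X/+ connective cell 51, listed at 0, and from the few epithelial cells with the transcript. Igf2 was detected in 20 of 21 Sox9Y440X/+ connective cells (95.2%, interval 76.2 to 99.9%), against 4 of 37 Sox9Y440X/+ epithelial cells (10.8%, interval 3.03 to 25.4%). Among the wild-type cells it was detected in 3 of 56 epithelial cells (5.36%, interval 1.12 to 14.9%). Its mean log2(FPKM + 1) was 5.99 ± 2.0 in Sox9Y440X/+ connective cells and 0.54 ± 1.57 in Sox9Y440X/+ epithelial cells (SD over 21 and 37 cells), a difference of 5.46. On this scale the change of a gene with low values is understated.

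Igf1, the ligand that acts in growing tissues and later as the mediator of growth hormone, had a lowest value of 0, a median of 13.6 and a highest value of 548 FPKM in Sox9Y440X/+ connective cells, and 133 FPKM in the wild-type connective cell. It varied more among connective cells than Igf2 did: it was detected in 16 of 21 (76.2%, interval 52.8 to 91.8%), and the 5 cells without it all had Igfbp4. Of the epithelial cells, 1 of 37 in Sox9Y440X/+ had Igf1, at 13.96 FPKM, and 0 of 56 in wild type. That count of 0 allows a share of cells with the transcript at 1 FPKM of up to 5.36% by the limit of 3 cells over the total, and of up to 6.38% by the exact interval. The Sox9Y440X/+ groups overlapped only at that value and below. The mean log2(FPKM + 1) was 4.34 ± 3.33 in Sox9Y440X/+ connective cells and 0.11 in Sox9Y440X/+ epithelial cells, a difference of 4.23. The 16 connective cells with Igf1 all had Igf2 too, 4 had Igf2 without Igf1, and 1 had neither.

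H19, the long non-coding RNA that hosts the microRNA miR-675, had a lowest value of 0, a median of 51.3 and a highest value of 319 FPKM in Sox9Y440X/+ connective cells, and was listed at 0 in the wild-type connective cell. It was detected in 16 of 21 Sox9Y440X/+ connective cells, 3 of 37 Sox9Y440X/+ epithelial cells and 4 of 56 wild-type epithelial cells, and the mean log2(FPKM + 1) was 4.94 ± 2.85 in Sox9Y440X/+ connective and 0.41 in Sox9Y440X/+ epithelial cells. The cells with H19 were all at 36.1 FPKM or above in the connective class, so that cells either had much of it or under 1 FPKM. The epithelial cells with H19 reached 38.4 FPKM in Sox9Y440X/+ and 104 FPKM in wild type, within the range of the connective cells. H19 was detected in 13 of 14 Sox9Y440X/+ cells of cluster 4 (interval 66.1 to 99.8%) and 3 of 7 of cluster 5 (interval 9.90 to 81.6%), with overlapping levels, where Igf2 was detected in 14 of 14 and 6 of 7. Cluster 5 had fewer genes (median 2560, against 3990 in cluster 4), and the part of that in the H19 count was not tested. The H19 gene lies on chromosome 7, chr7:142575529-142578143 on the minus strand (GRCm38), 72622 bases from Igf2 at chr7:142650766-142666816 on the same strand.

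The arms of the microRNA are shown because they are the short products known from H19. Both lie inside an H19 exon (mature sequences from RefSeq, GRCm38.p6, minus strand, at chr7:142577112-142577133 for the 5p arm and chr7:142577078-142577099 for the 3p arm), with the seed, bases 2 to 8, in capitals:
mmu-miR-675-5p: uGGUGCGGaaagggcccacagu
mmu-miR-675-3p: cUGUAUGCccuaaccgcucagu
The seeds differ, so the arms do not form one seed family. The Mir675 entry was listed at 0 in all cells, as was Mir483 inside Igf2, so the H19 values speak of the host RNA alone.

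**Figure D1:**
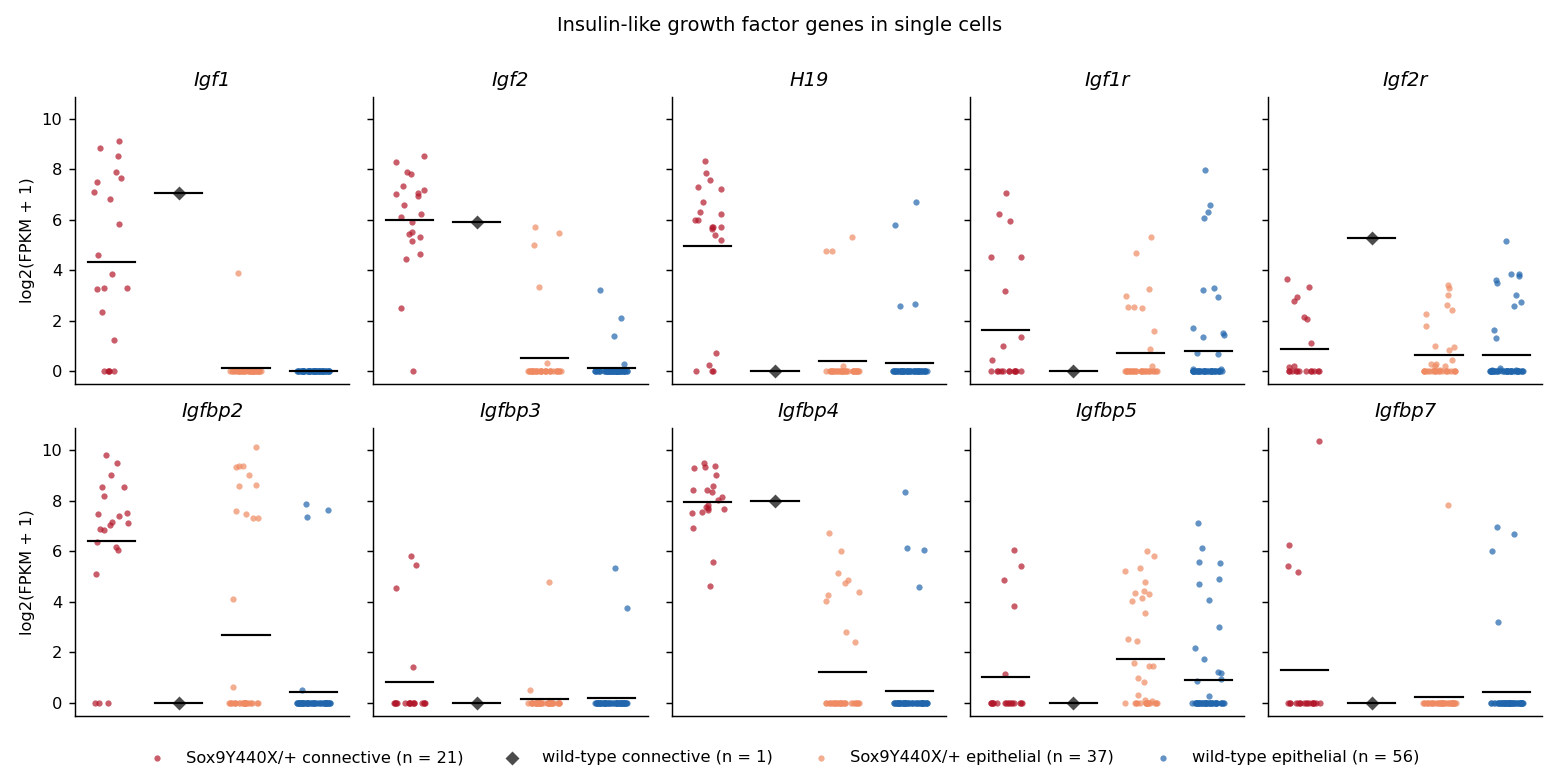
Each point is 1 cell, its level on the vertical axis as log2(FPKM + 1), in a panel for each of the 10 genes. Colours give the 21 Sox9Y440X/+ connective cells, the wild-type connective cell (diamond), the 37 Sox9Y440X/+ epithelial cells and the 56 wild-type epithelial cells, and horizontal bars are means. Igf1, Igf2, H19 and Igfbp4 are high in the connective cells and near 0 in most epithelial cells, and Igfbp2 is high in connective cells and in a subset of Sox9Y440X/+ epithelial cells.

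The receptors were in fewer Sox9Y440X/+ connective cells than the ligands. Igf1r and Igf2r were each detected in a minority of cells of every class with more than 1 cell, with medians of 0 throughout. Igf1r, the signalling receptor, was detected in 7 of 21 Sox9Y440X/+ connective cells (33.3%, interval 14.6 to 56.97%), with a highest value of 133 FPKM, and in 8 of 37 Sox9Y440X/+ epithelial cells (21.6%, interval 9.83 to 38.2%), with a highest value of 38.9 FPKM. In wild type it was detected in 11 of 56 epithelial cells (19.6%, interval 10.2 to 32.4%), up to 252 FPKM, and was listed at 0 in the connective cell. The ranges overlapped over nearly their whole length. The mean log2(FPKM + 1) of Igf1r was 1.63 in Sox9Y440X/+ connective and 0.72 in Sox9Y440X/+ epithelial cells, a difference of 0.92, and was 0.78 in wild-type epithelial cells. The difference between the Sox9Y440X/+ classes depended on the scale: a pseudocount of 0.1 gave 1.42 and a pseudocount of 10 gave 0.47. The mean FPKM, 15.4 in connective and 2.60 in epithelial cells, gave a log2 ratio of 2.57. Where the limits on cells were changed it ran from 0.40 to 1.07. Within the connective class Igf1r was found in 6 of 14 Sox9Y440X/+ cells of cluster 4 and 1 of 7 of cluster 5.

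Igf2r, which clears Igf2, was detected in the same numbers of cells: 7 of 21 in Sox9Y440X/+ connective, 8 of 37 in Sox9Y440X/+ epithelial and 11 of 56 in wild-type epithelial cells. At a lower limit of 0.1 FPKM more Sox9Y440X/+ cells of both classes had Igf2r, while the wild-type epithelial count did not change. The likeness of the epithelial shares thus depended on the limit. Its highest values were 11.6 FPKM in Sox9Y440X/+ connective, 9.71 in Sox9Y440X/+ epithelial and 34.2 in wild-type epithelial cells, and the wild-type connective cell had 37.6 FPKM. These were mostly different cells from those with Igf1r, since both receptors were detected in 3 of 21 Sox9Y440X/+ connective, 1 of 37 Sox9Y440X/+ epithelial and 1 of 56 wild-type epithelial cells. Igf2r overlaps the antisense RNA Airn on chromosome 17, and without strand the reads of the overlap cannot be told apart. Airn and Igf2r were detected together in 1 cell of each of these 3 groups, so that few of the Igf2r calls had Airn beside them.

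Of the binding proteins, Igfbp4 was the most general connective gene, Igfbp2 was shared between connective cells and part of the Sox9Y440X/+ epithelium, Igfbp5 was in part of the cells of both classes, and Igfbp3 and Igfbp7 were in few cells. Counting all 10 genes, 6 were higher by at least 1 log2 unit in Sox9Y440X/+ connective cells than in Sox9Y440X/+ epithelial cells and 0 were lower, where 12.9% of 6620 genes were higher and 24.9% lower. The 6 were Igfbp4, Igf2, H19, Igf1, Igfbp2 and Igfbp7. Igfbp7 was not among the 6620 genes, which had to be found in 25% or more of the cells in one of the groups. Of the 10 genes 8 met that condition, and 5 of the 8 were higher. Of those 5, Igf2, H19 and Igf1 met it through the connective cells alone. The threshold lay between Igfbp7, at 1.08 just inside, and Igf1r, at 0.92 just outside. The median difference was 2.41 over the 10 genes and -0.27 over all genes tested.

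Igfbp4, a binding protein that mostly restrains the ligands until a protease cuts it, was detected in all 21 Sox9Y440X/+ connective cells (interval 83.9 to 100%), with a lowest value of 23.5, a median of 258 and a highest value of 719 FPKM, and stood at 253 FPKM in the wild-type connective cell. In epithelial cells it was detected in 10 of 37 in Sox9Y440X/+, up to 105 FPKM, and in 4 of 56 in wild type, up to 328 FPKM, with medians of 0. The connective cells thus lay above nearly all epithelial cells. The mean log2(FPKM + 1) was 7.96 ± 1.2 in Sox9Y440X/+ connective cells and 1.22 ± 2.14 in Sox9Y440X/+ epithelial cells, a difference of 6.74. The cell with endothelium markers had 118 FPKM, and the lowest value belonged to cell 20, with the pericyte markers. Within the class Igfbp4 was higher in cluster 5 (118 to 719 FPKM, median 511) than in cluster 4 (23.5 to 627 FPKM, median 213), with overlapping ranges.

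The promoter windows of Igf2, Igfbp4 and Igfbp2 are shown because these genes carry the connective pattern, and Igfbp2 also the epithelial one. They are RefSeq windows of GRCm38.p6, each 300 bases long. The Igfbp4 and Igfbp2 windows lie mostly before the gene start, while the Igf2 window lies wholly inside the gene as placed above. Of the 10 genes, 9 matched the RefSeq windows, with 13 windows in all. Capitals mark matches, on either strand, to a TATA box (TATAAA), a GC box (GGGCGG) or a SOX core (AACAAT); no matches overlapped in these windows. The Igf2 window, one of several for the gene, is chr7:142661222-142661521 on the minus strand, the Igfbp4 window is chr11:99040994-99041293 on the plus strand, and the Igfbp2 window is chr1:72824230-72824529 on the plus strand.
Igf2: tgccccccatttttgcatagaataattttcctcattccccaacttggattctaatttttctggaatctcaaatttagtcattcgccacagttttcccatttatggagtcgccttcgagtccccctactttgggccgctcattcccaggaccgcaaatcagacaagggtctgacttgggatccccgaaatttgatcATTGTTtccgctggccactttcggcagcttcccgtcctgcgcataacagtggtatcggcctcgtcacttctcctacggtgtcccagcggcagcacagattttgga
Igfbp4: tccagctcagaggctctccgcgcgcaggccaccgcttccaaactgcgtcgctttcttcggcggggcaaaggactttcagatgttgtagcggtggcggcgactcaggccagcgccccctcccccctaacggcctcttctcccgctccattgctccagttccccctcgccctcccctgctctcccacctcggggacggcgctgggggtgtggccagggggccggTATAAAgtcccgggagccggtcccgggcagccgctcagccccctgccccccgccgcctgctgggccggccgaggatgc
Igfbp2: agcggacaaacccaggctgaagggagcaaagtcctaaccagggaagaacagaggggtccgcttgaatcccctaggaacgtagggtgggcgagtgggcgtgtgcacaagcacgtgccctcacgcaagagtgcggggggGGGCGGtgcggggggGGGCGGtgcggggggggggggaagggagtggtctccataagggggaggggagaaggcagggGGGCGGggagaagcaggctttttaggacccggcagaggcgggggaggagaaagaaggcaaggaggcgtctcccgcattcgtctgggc
The TATA box letters were in the Igfbp4 window alone among the 13, against 13.6% of 32851 windows of all genes. The GC box letters were in 6 of the 13 windows, against 35.7% of all windows, with 3 matches in this Igfbp2 window. The SOX core letters were in 1 of the 13 windows, against 10.7% of all windows. That window is the Igf2 window shown. The other Igf2 windows, among them the one at the gene start, had no match to the SOX core. A match is a description of the letters and not a site.

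Igfbp2, abundant in fetal epithelia and mesenchyme, had a lowest value of 0, a median of 138 and a highest value of 893 FPKM in Sox9Y440X/+ connective cells, and was detected in 18 of 21 (85.7%, interval 63.7 to 97.0%). The wild-type connective cell was listed at 0. In epithelial cells of Sox9Y440X/+ the lowest and the median were 0 and the highest value was 1121 FPKM, so the Sox9Y440X/+ epithelial range held the whole connective range. The mean log2(FPKM + 1) was 6.41 ± 2.92 in Sox9Y440X/+ connective cells and 2.67 ± 3.97 in Sox9Y440X/+ epithelial cells, a difference of 3.74. The mean FPKM, 218 in Sox9Y440X/+ connective and 137 in Sox9Y440X/+ epithelial cells, gave a log2 ratio of only 0.66. More of the connective cells had Igfbp2, while the positive cells had more of it in the epithelial class. The median over detected cells was 154 FPKM in Sox9Y440X/+ connective cells and 391 FPKM in Sox9Y440X/+ epithelial cells.

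Igfbp5, a binding protein held in the extracellular matrix, lies 5457 bases from Igfbp2 on chromosome 1, with the genes pointing at each other (Igfbp2 at chr1:72824503-72852474 on the plus strand, Igfbp5 at chr1:72857932-72874884 on the minus strand). It did not share Igfbp2's connective level. It was detected in 5 of 21 Sox9Y440X/+ connective cells (23.8%, interval 8.22 to 47.2%), up to 64.4 FPKM, and in 16 of 37 Sox9Y440X/+ epithelial cells (43.2%, interval 27.1 to 60.5%), up to 63.5 FPKM. The mean log2(FPKM + 1) was 1.01 in Sox9Y440X/+ connective cells and 1.72 in Sox9Y440X/+ epithelial cells, a difference of -0.71, the lowest of the 10 genes and under 1 log2 unit. Wild-type epithelial cells, with Igfbp5 in 12 of 56 (21.4%, interval 11.6 to 34.4%), up to 140 FPKM and at a mean log2(FPKM + 1) of 0.88, were close to the Sox9Y440X/+ connective cells. The ranges of all 3 groups overlapped. The 5 connective cells with Igfbp5 all had Igfbp2, and 13 had Igfbp2 alone of the pair.

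Igfbp7, a secreted protein of vessel walls and other stroma that binds the ligands weakly, was detected in 4 of 21 Sox9Y440X/+ connective cells, with a highest value of 1311 FPKM in cell 20. That cell had 3 pericyte and 2 endothelium markers, was listed at 0 for Igf1, and made up 89.7% of the summed Igfbp7 of its class. The difference from Sox9Y440X/+ epithelial cells, 1.08 on the log2 scale, was 0.63 without it, under the threshold of 1 log2 unit. The other connective cells with Igfbp7 had 35.6 to 74.2 FPKM. The cell with 10 endothelium markers was listed at 0 for Igfbp7 and Igfbp3. Igfbp3, the main carrier of the ligands in blood, was detected in 4 of 21 Sox9Y440X/+ connective cells, up to 54.9 FPKM, and in 1 of 37 Sox9Y440X/+ epithelial cells, at 26.8 FPKM.

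Between the genotypes, the epithelial comparison was that of Sox9Y440X/+ with wild type at 37 and 56 cells. It had 1 of the 10 genes higher in Sox9Y440X/+ by at least 1 log2 unit, Igfbp2, and 0 lower, where 13.5% of 5957 genes were higher and 2.2% lower. The next largest differences, Igfbp5 at 0.84 and Igfbp4 at 0.78, lay just under the threshold, and the other 7 genes lay within 0.5 of 0. The median over the 10 genes was 0.10, against 0.36 over all genes tested, of which 72.8% were above 0. The filter on low values was met by 3 of the 10 genes, Igfbp2, Igfbp4 and Igfbp5, each through the Sox9Y440X/+ cells alone. The Sox9Y440X/+ epithelial cells had more genes per cell (median 4506) than the wild-type ones (3241.5), and the part of this in the differences was not tested.

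Igfbp2 was detected in 12 of 37 Sox9Y440X/+ epithelial cells (32.4%, interval 18.01 to 49.8%) and 3 of 56 wild-type epithelial cells (5.36%, interval 1.12 to 14.9%). The positive cells ran from 16.3 to 1121 FPKM in Sox9Y440X/+ and were at 162, 200 and 235 FPKM in wild type, inside that range. The mean log2(FPKM + 1) was 2.67 ± 3.97 in Sox9Y440X/+ and 0.42 ± 1.73 in wild type (SD over cells), a difference of 2.26, and the mean FPKM was 137 in Sox9Y440X/+ and 10.7 in wild type, a ratio of 12.9. Most cells of either genotype had none. The genotypes differed in the number of cells with the transcript. The median over positive cells was 391 FPKM in Sox9Y440X/+ and 200 FPKM in wild type. The latter rests on 3 cells inside the Sox9Y440X/+ range, too few to compare the level between the genotypes.

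Those cells were not spread over the epithelium. Of the Sox9Y440X/+ cells, Igfbp2 was detected in 7 of 10 in cluster 2 and 4 of 5 in cluster 7, together 11 of 15, against 1 of 22 in the other clusters. These 2 clusters were singled out after the values were seen. Cluster 2 was led by Fam132a, Aldh1a3 and Lypd2 and cluster 7 by Wnt6, Arl3 and Phgdh, and both were left without a cell type name beyond epithelial. Cluster 2 held 10 Sox9Y440X/+ cells and 1 wild-type cell, and cluster 7 held 5 and 4. In cluster 7, where both genotypes can be set side by side, the 5 Sox9Y440X/+ cells had Igfbp2 at 0, 159, 397, 665 and 1121 FPKM, while 3 of the 4 wild-type cells were listed at 0 and the other had 0.398 FPKM. The 4 Sox9Y440X/+ cells with the gene lay above all wild-type cells of the cluster. Outside clusters 2 and 7 the genotype difference turned to -0.26, with 1 of 22 Sox9Y440X/+ cells and 3 of 51 wild-type cells positive, so the pooled value rests on clusters in which Sox9Y440X/+ cells were 15 of 20. Cluster and genotype cannot be told apart in the pooled value. The wild-type cells with Igfbp2 were in cluster 8 (2 of 10), which held no Sox9Y440X/+ cell, and cluster 6 (1 of 22).

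Igfbp4 and Igfbp5 were also found in these clusters of the Sox9Y440X/+ epithelium. Igfbp4 was detected in 9 of 15 Sox9Y440X/+ cells of clusters 2 and 7 and 1 of 22 of the rest, and Igfbp5 in 10 of 15 and 6 of 22. Igfbp5 was in 3 of 5 Sox9Y440X/+ cells of cluster 1 and 2 of 6 of cluster 6. Of the 37 cells, 8 had Igfbp2 and Igfbp4, 4 had Igfbp2 alone, 2 had Igfbp4 alone and 23 had neither, and over these cells, which share 1 sample and differ in gene number, Pearson's r of the log2 levels was 0.66. In the 56 wild-type cells no cell had both, 3 had Igfbp2 and 4 had Igfbp4. The wild-type cells with Igfbp4 were 3 of 10 in cluster 8 and 1 of 4 in cluster 7. Igfbp5 was likewise in 3 of 10 and 1 of 4 of them, and Igfbp2 in 2 of 10 of cluster 8. Cluster 8, of wild-type cells alone, was led by Aldh1a3, which was also among the genes that led cluster 2. Its median gene number was 2057.5, against 4852 in cluster 2. The Igfbp4 difference of 0.78 was one of cell number (10 of 37 in Sox9Y440X/+, 4 of 56 in wild type), since the mean FPKM was 8.63 in Sox9Y440X/+ and 8.66 in wild type, the wild-type mean carried by 1 cell of cluster 7 at 328 FPKM. The Sox9Y440X/+ epithelial cells with Igfbp2 had 6 to 13 of 14 epithelium markers, where the median of all 37 cells was 12. Cells 54 and 46, with the highest Igfbp2, had 8 and 6. Mesenchyme markers numbered 0 to 2 (median 0) in the cells with Igfbp2, against 0 to 3 (median 1) in those without. The median gene number was 4380 in the cells with Igfbp2, against 4520. Igf2 accompanied Igfbp2 in 2 of the 12 cells. In 1 of these, cell 60 of cluster 2, the whole connective set was present, with Igf1 at 13.96, Igf2 at 51.6, H19 at 38.4, Igfbp2 at 191 and Igfbp4 at 34.1 FPKM. That cell had 12 epithelium markers, 1 mesenchyme marker and 6024 genes, and no doublet call was made. The other 11 cells with Igfbp2 had no Igf1.

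**Figure D2:**
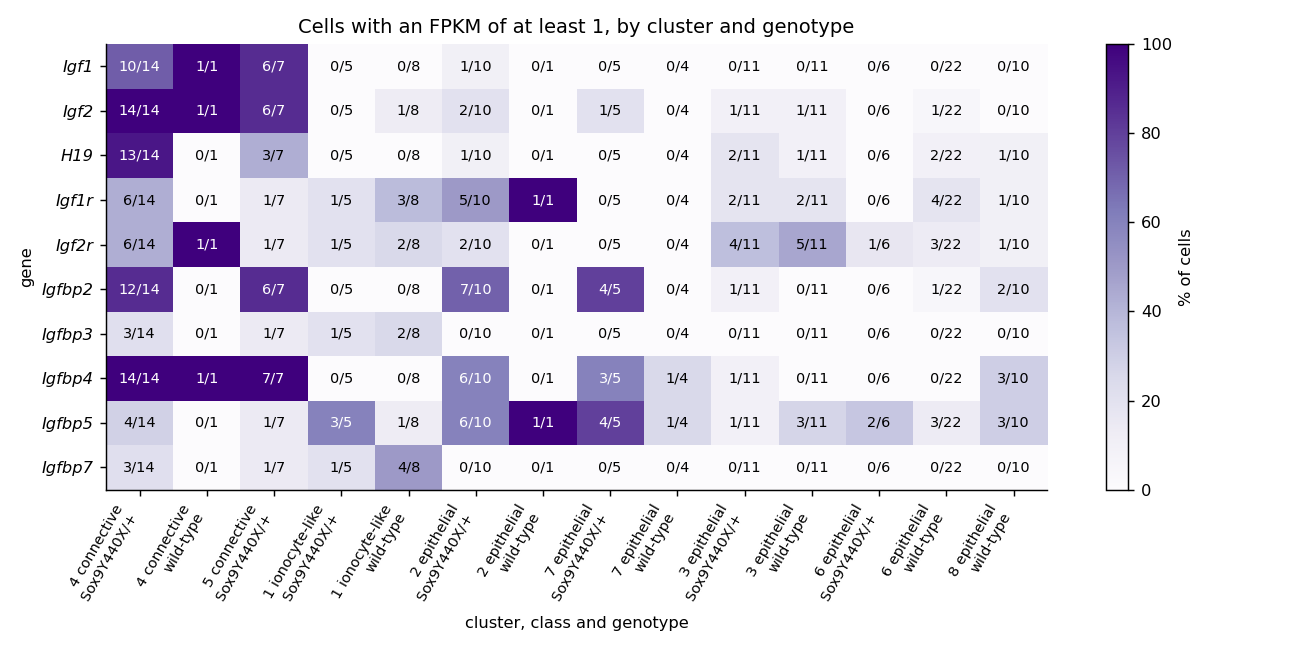
Rows are the 10 genes and columns the clusters split by genotype, with the connective clusters 4 and 5 at the left; each field gives the cells with an FPKM of at least 1 over the cells of the column, and shading the percent. Igfbp2 is detected in 7 of 10 and 4 of 5 Sox9Y440X/+ cells of clusters 2 and 7 and in 0 of 1 and 0 of 4 wild-type cells there.

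**Figure D3:**
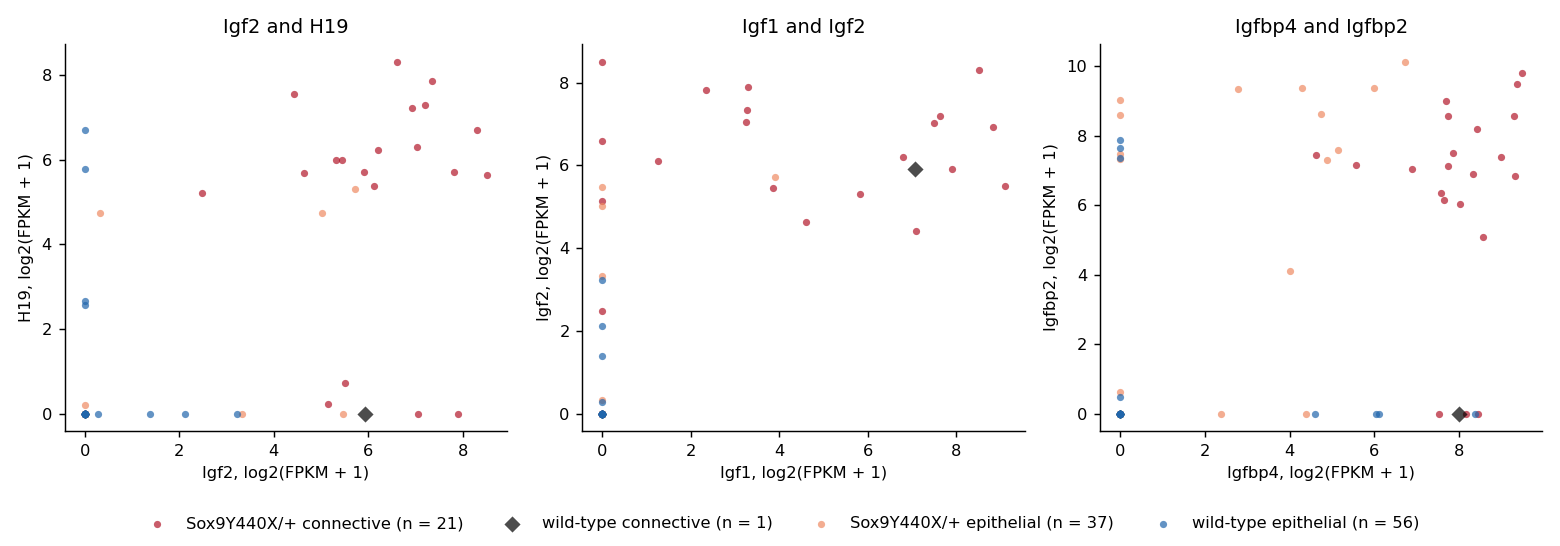
Each point is 1 cell, placed by the levels of a pair of genes as log2(FPKM + 1): Igf2 and H19, Igf1 and Igf2, and Igfbp4 and Igfbp2. Colours give class and genotype; the 18 Sox9Y440X/+ connective cells with Igfbp2 all have Igfbp4, and 8 Sox9Y440X/+ epithelial cells, but no wild-type epithelial cell, have both.

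The other epithelial site was the ionocyte-like cluster 1, which carries markers of the ion-pumping cells of the sac, with 5 Sox9Y440X/+ and 8 wild-type cells. Igfbp7 was detected in 1 of 5 Sox9Y440X/+ and 4 of 8 wild-type cells of this cluster, against 0 of 32 Sox9Y440X/+ and 0 of 48 wild-type epithelial cells outside it. The values were 225 FPKM in Sox9Y440X/+ and 8.11, 63.2, 101 and 123 FPKM in wild type. Igfbp3 was in the same cluster in both genotypes: 1 of 5 cells in Sox9Y440X/+ at 26.8 FPKM and 2 of 8 in wild type at 12.6 and 39.8 FPKM, and in 0 of 32 and 0 of 48 of the rest. The 7 cells with either gene had 8 to 13 epithelium markers and 1 or 2 mesenchyme markers, so they were not connective cells by those lists. Dcn, a mesenchyme marker of the list, was among the genes that led the cluster. Outside the cluster the limit of 3 cells over the total allows shares of cells at 1 FPKM of up to 9.38% in Sox9Y440X/+ and 6.25% in wild type, and since a 0 can be a failed estimate it does not limit the share of cells that express the genes. The cluster was looked at because of these values.

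Igf2 and H19 in epithelium were rare in both genotypes. The 4 Sox9Y440X/+ cells with Igf2 had 9.07, 31.2, 43.3 and 51.6 FPKM, and the 3 wild-type cells 1.61, 3.32 and 8.37 FPKM, so the groups of positive cells did not overlap, on 7 cells. Mesenchyme markers numbered 0 to 3 in the Sox9Y440X/+ cells with Igf2, against 0 to 2 in those without, and 0 to 2 in the wild-type cells with Igf2, against 0 to 4 in those without. The cells with Igf2 had more genes, a median of 5438 in Sox9Y440X/+, against 4254 without, and of 6236 in wild type, against 3213 without. The part of gene number in these counts was not tested. Igf2 and H19 were together in 2 Sox9Y440X/+ epithelial cells and in no wild-type one. Likeness of pattern was weak: over the 37 Sox9Y440X/+ and the 56 wild-type epithelial cells, the genes with the highest lower r to Igf2 among 3587 were Ddx46 (0.32), Efemp1 (0.32), Faf2 (0.32), Sft2d1 (0.31) and Wapl (0.30). For Igfbp2 they were Pcbp4 (0.33), Glyr1 (0.31), Spsb1 (0.31), Cul5 (0.30) and Arxes2 (0.30). For Igf2 and for Igfbp2 alike the values rest on 3 positive cells in wild type, and the genes were picked as the highest of 3587.

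When classes were ignored, 5 of the 10 genes were higher by at least 1 log2 unit in Sox9Y440X/+ cells than in wild-type cells and 0 were lower, where 10.2% of 5756 genes were higher and 5.59% lower. They were Igfbp2 (3.62), Igfbp4 (3.08), Igf2 (2.29), H19 (1.74) and Igf1 (1.51). Of these only Igfbp2 passed 1 log2 unit within the epithelial cells. Connective cells were 21 of 58 in Sox9Y440X/+ and 1 of 57 in wild type, and with a single wild-type connective cell no genotype difference within that class was computed. That cell had Igf1, Igf2 and Igfbp4 inside the range of the Sox9Y440X/+ connective cells, Igf2r above it, and H19 and Igfbp2 at 0, where 5 and 3 of 21 Sox9Y440X/+ cells were below 1 FPKM. It also had 8 of 12 chondrocyte markers, against 0 to 6 in the Sox9Y440X/+ connective cells, and the part of this in its values was not tested.

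The genes around the system were taken from lists of 98 entries, 95 different genes. The lists were drawn up with earlier results of these data known. None of 9 further ligands, receptors and binding proteins was detected in 25% of the cells of a group in either comparison. Among 9 proteases of the binding proteins and their inhibitors, 4 could be compared between connective and epithelial cells of Sox9Y440X/+. Of these 3 were higher and 0 lower, with 12.9% of genes higher in that comparison. Those 3 met the 25% condition through the connective cells alone, so their count was partly set by the filter. The median difference was 0.31 over all 9. Mmp2, a matrix metalloprotease that can cut binding proteins, had a median of 140 FPKM in Sox9Y440X/+ connective cells, where 19 of 21 cells had it, and was in 0 of 37 Sox9Y440X/+ epithelial cells. Htra1, a secreted serine protease, had a median of 87.8 FPKM in Sox9Y440X/+ connective cells and 0 in Sox9Y440X/+ epithelial cells, a difference of 4.08. Adamts1, a protease of the matrix, differed by 2.13. In the genotype comparison of epithelial cells 2 of the 9 could be compared, where 13.5% of all genes were higher and 2.2% lower. Mmp14, a membrane-bound metalloprotease, was higher in Sox9Y440X/+ by 1.43. Stc2 went the other way, at -0.93, detected in 1 of 37 Sox9Y440X/+ cells and 14 of 56 wild-type cells. With the log2 ratio of mean FPKM 0 were higher and 1 lower.

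The intracellular arm was compared mostly in the epithelium. Of 19 genes of PI3-kinase, AKT and mTOR signalling, 14 could be compared between the genotypes, and 6 were higher in Sox9Y440X/+ and 0 lower, with 13.5% of all genes higher. They were the kinase adaptor Pik3r1 (1.10), its relative Pik3r2 (1.38), the kinases Akt1 (1.17) and Akt2 (1.09), the mTOR activator Rheb (1.22) and the translation repressor Eif4ebp1 (1.62), all as differences of mean log2(FPKM + 1). Rheb had a median of 57.1 FPKM in Sox9Y440X/+ and 21.5 FPKM in wild type, while the medians of Pik3r1, Pik3r2 and Akt2 were 0 in both. Pik3r1, Pik3r2 and Akt2 met the 25% condition through the Sox9Y440X/+ cells alone, with 13, 8 and 9 of 56 wild-type cells. The count of 6 was thus partly set by the filter. The median difference was 0.82 over the 14 genes that could be compared and 0.46 over all 19, against 0.36 over all genes tested, and the higher gene number of Sox9Y440X/+ cells applies here too. With a pseudocount of 10 none of the 14 was past 1 log2 unit, and with the log2 ratio of mean FPKM 5 were higher and 1 lower. In the Sox9Y440X/+ connective cells against the epithelial ones 0 of 14 were higher and 4 lower: Pik3r2 (-1.67), Foxo3 (-1.66), Gsk3b (-1.62) and Rheb (-1.03), with 24.9% of genes lower.

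Among 14 receptor adaptors and regulators 10 could be compared in each comparison. Between the genotypes 1 was higher and 2 lower, where 13.5% of all genes were higher and 2.2% lower, and between the Sox9Y440X/+ classes 3 were higher and 1 lower, where 12.9% were higher and 24.9% lower. In Sox9Y440X/+ against wild-type epithelium Irs2, an adaptor of the receptor, was higher by 1.03, its relative Irs1 was lower by 1.01 and the signalling inhibitor Socs3 was lower by 1.24. Irs1 was detected in 4 of 37 Sox9Y440X/+ cells and 22 of 56 wild-type cells. Irs2 was detected in 26 of 37 Sox9Y440X/+ cells and 19 of 56 wild-type cells, so the wild-type counts of the adaptors were close. The differences of Irs1 and Irs2 lay just past the threshold. With the log2 ratio of mean FPKM 0 of the 10 were higher and 2 lower. In Sox9Y440X/+ connective against epithelial cells Grb10, an imprinted inhibitor of the receptor, was higher by 2.24, the adaptor Shc1 by 2.0 and Socs3 by 1.93, and Irs2 was lower by 1.47. A list of 6 genes held the Igf2 mRNA-binding proteins Igf2bp1, Igf2bp2 and Igf2bp3, and beside them Lin28a, Lin28b and Hmga2. Only the 3 Igf2bp genes could be compared, and none of them reached 1 log2 unit in either comparison.

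Imprinted growth genes shared the connective pattern of Igf2 and H19 in part. Of 15 genes of that network, 12 could be compared between connective and epithelial cells of Sox9Y440X/+, 6 were higher, 3 lower and 3 within 1 log2 unit, where 12.9% of all genes tested were higher and 24.9% lower. The share lower was thus near that of all genes. The median was 1.57 over the 12 and 0.75 over all 15, against -0.27 over all genes tested. Over 4 other scalings 6 to 8 were higher and 1 to 3 lower. Peg3, a paternally expressed zinc-finger gene, was higher by 4.92, with a median of 58.5 FPKM in Sox9Y440X/+ connective cells and 0 in Sox9Y440X/+ epithelial cells. Mest, paternally expressed in mesoderm, was higher by 3.93 and Cdkn1c, a maternally expressed cell-cycle inhibitor, by 3.07. Ndn, Grb10 and Slc38a4 were higher by 2.53, 2.24 and 2.15. Gnas, which encodes a G-protein subunit, was in every cell of both classes and lower by 2.37 in the connective cells, with medians of 410 FPKM in connective and 1547 FPKM in epithelial cells of Sox9Y440X/+. Plagl1, a zinc-finger factor, was lower by 2.26, and Airn by 1.26. Peg3, Mest and Slc38a4 met the 25% condition through the connective cells alone, and Plagl1 and Airn through the epithelial cells alone. In the epithelial comparison of Sox9Y440X/+ with wild type, 9 of the 15 could be compared. Of these 1 was higher, Airn by 1.14, and 1 lower, Mest by 1.23, where 13.5% of all genes were higher and 2.2% lower. With the log2 ratio of mean FPKM 0 were higher and 2 lower.

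**Figure D4:**
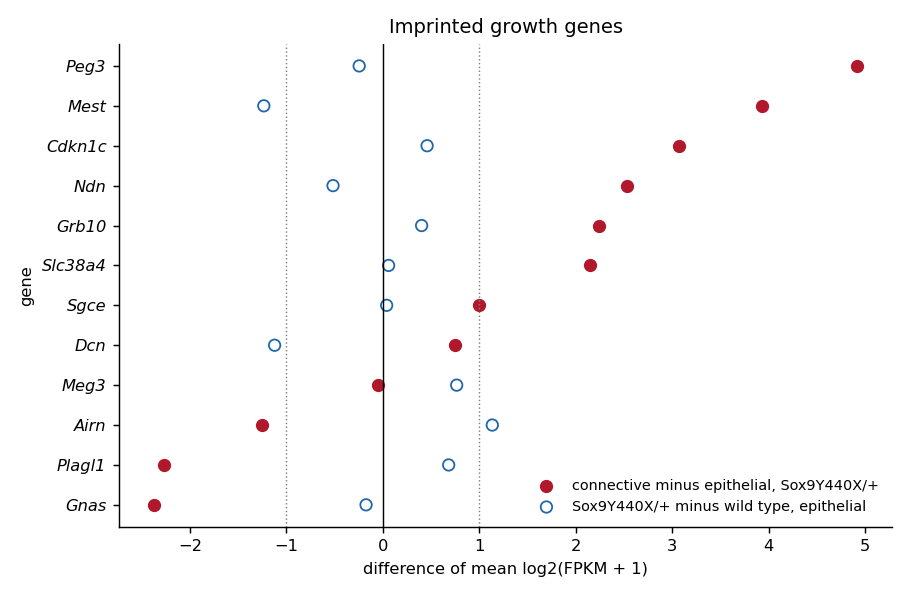
Each line is 1 of the 12 imprinted growth genes that could be compared between the Sox9Y440X/+ classes. Filled points give the difference of mean log2(FPKM + 1) between connective and epithelial cells of Sox9Y440X/+, and open points that between Sox9Y440X/+ and wild-type epithelial cells, with dotted lines at -1 and 1. Filled points run from -2.37 (Gnas) to 4.92 (Peg3), while open points run from -1.23 (Mest) to 1.14 (Airn).

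Of 16 genes of the Igf2-H19 chromosomal region, 5 could be compared between the Sox9Y440X/+ classes. Cdkn1c was higher, with medians of 48.4 FPKM in connective and 0 in epithelial cells, and Cd81, a membrane tetraspanin, was lower by 2.77, with medians of 160 FPKM in connective and 516 FPKM in epithelial cells. The median difference of the 5 was -0.34, against -0.27 over all genes tested, and the other 3 lay within 1 log2 unit. None of the 5 reached 1 log2 unit between the genotypes in the epithelium.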

How the data were processed

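Single cells were measured by Smart-seq2, and the authors deposited FPKM values in 1 table for all cells. Cufflinks, HTSeq, HISAT2 and SAMtools 0.1.18 and the mm10 build are named in the submitters' processing notes, with no role, order or settings. Entries with the same symbol were added. Cells with under 1000 genes per the labels were left out. The 1500 most variable genes, without the 10 genes described, gave 15 principal components and 8 Ward clusters, classed by marker lists; no doublet caller was run. A gene was tested in a comparison if at least 25% of the cells of either group reached an FPKM of 1. A gene high in 1 group can pass through that group alone, among the listed genes and among all genes. Differences are of mean log2(FPKM + 1). With 1 sample per genotype no p-value was computed. The member genes and lists were chosen with earlier results of these data known. Named genes are the 10 members, listed pathway genes past 1 log2 unit among genes that could be compared, and for likeness the 5 genes with the highest lower r to Igf2 and Igfbp2. Pairs of genes, clusters 2 and 7, the ionocyte-like cluster and connective cells with endothelium or pericyte markers were singled out after values were seen. Of 220 list entries 218 matched, 2 by an older symbol. Gene positions are from GENCODE on GRCm38, the build called mm10. Alternatives changed the pseudocount, scale, cells, clustering, class rule and detection limit. Scripts used Python 3.11.15, pandas 2.3.3, NumPy 2.4.6, SciPy 1.17.1 and matplotlib 3.10.9 and were tested on simulated data.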

Additional observations from a re-analysis of the deposited data

Results flagged for a closer look

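Igfbp2 was found at 143 FPKM in the wild-type cell numbered 56, which was left out of all comparisons for its 479 genes; this is above the median of 0 in wild-type epithelial cells. The cell had 8 of 9 erythroid markers, Hba-a1 at 273807 FPKM and none of the epithelium markers, and the other 9 genes were at 0 in it. The 4 Sox9Y440X/+ cells left out were at 0 for all 10 genes.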

How the results depend on the processing

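With no counts, no replicate samples and unknown depth, a value of 0 cannot be read as absence, and the shares carry counting error only. The shares of epithelial cells kept their side under 16 of 16 settings, and 82 of 92 counts of genes past 1 log2 unit and 143 of 173 differences of at least 1 stayed within 1.5 times. The count of genes higher in Sox9Y440X/+ than in wild-type epithelium, 1, was 3 with a pseudocount of 0.1, 3 with the log2 ratio of mean FPKM (which also gave 1 lower), 2 against wild-type cells without Xist, and 0 within cluster 3, within cluster 6 and, added later, outside clusters 2 and 7. Within cluster 1 alone 1 gene was lower. Igfbp2 in that comparison ran from -0.33 to 3.69, with -0.33 within cluster 6 and -0.26 outside clusters 2 and 7. Between the Sox9Y440X/+ classes a pseudocount of 0.1 gave 8 higher genes (Igf1r and Igfbp3 added) and 1 lower gene (Igfbp5, -1.52), the log2 ratio of mean FPKM gave 7 higher, and over all cells a pseudocount of 10 gave 3 higher genes. The cause of these moves was not tested beyond the cell counts given in the report. Between the classes Igfbp4 ran from 4.23 to 9.18, Igf2 from 2.84 to 8.20, H19 from 2.34 to 6.92, Igf1 from 2.17 to 8.22 and Igfbp2 from 0.66 to 5.45. Without the cell of 10 endothelium markers, added later, 6 genes stayed past 1 log2 unit, and without the cell of 3 pericyte markers 5. With a pseudocount of 10 none of the listed pathway genes passed 1 log2 unit between the genotypes in the epithelium. The share of all genes past 1 log2 unit moved with the filter on low genes: 13.5% higher in Sox9Y440X/+ epithelium became 8.02% and 1.71% with 10% of cells and with no filter. No paired analysis was possible because cell numbers are names only, each genotype is 1 sample and no test was made.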
